A study of Homo sapiens with 18 samples.

Results

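The genes described here are 8 mucins, MUC1, MUC4, MUC5AC, MUC5B, MUC13, MUC15, MUC16 and MUC20, chosen by name out of the 55765 gene symbols counted in every library. All 8 symbols were found in both count tables. The cells were OVCAR3, an established adherent cell line of high-grade serous ovarian carcinoma, grown in RPMI medium with 2% fetal bovine serum and either left untreated or exposed to antibody at 0.5 µg/ml for 24 h by the sample labels (another account of the experiments gives a shorter exposure). RNA was sequenced in 18 libraries that form 2 series of 9, with 3 replicates in each of 6 groups. The first series holds untreated cells, cells given human IgG and cells given human IgA, both of no chosen specificity. The second holds its own untreated cells, cells given an IgA against BDNF, a neurotrophin, and cells given an IgA against TSPAN7, a tetraspanin of the cell surface. Both of the latter antibodies came from immortalized B cell clones of tumours. One cell line stands for ovarian carcinoma here, and although the study describes its replicates in general as biological replicates or independent experiments, the labels do not say which libraries share a culture, so the p-values measure the spread between these libraries. Groups were compared only within a series.

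Mucins are proteins with long stretches of serine, threonine and proline that carry dense O-linked glycans. Transmembrane mucins (MUC1, MUC4, MUC13, MUC15, MUC16, MUC20) stand on the apical face of epithelial cells, where their extracellular parts can be shed, whereas MUC5AC and MUC5B are secreted, gel-forming mucins of airway, gastric and other mucus. MUC16 carries CA125, the serum antigen used to follow ovarian carcinoma, and binds mesothelin (MSLN) on neighbouring mesothelial cells. Because the RNA came from whole cultures, fewer cells that express a gene and less RNA per cell cannot be told apart.

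The libraries held 27920733 to 42371474 counts each in the first series, and 39254350 to 47381836 each in the second. All 14 ovarian carcinoma epithelium markers examined, among them PAX8, WT1, MSLN, EPCAM and the keratins of simple epithelium, had at least 10 counts in every library. Of 8 B lineage markers, 1 to 3 had at least 10 counts, and MS4A1 was at 0 in all but 1 library. Of 6 fibroblast markers and of 8 myeloid and T cell markers, 2 to 4 each had at least 10 counts, and CD3D was at 0 in every library. MS4A1 and CD3D were the markers of their lists most often at 0, and other markers of both lists had counts in every library. Summed normalised counts were 646 to 1256 for the B lineage list and 57.7 to 129 for the myeloid and T cell list. They were 2064 to 4875 for the fibroblast list, which includes COL1A1 and COL1A2. The highest fibroblast sum was in IgA replicate 3, at 4875 against 2064 to 3079 in the rest of its series, with COL3A1, DCN and PDGFRB at 0 there, and its part in the results was not tested. One library stood apart. In IgA replicate 3 the mitochondrial genome supplied 19.1% of the counts, against 5.75% to 8.32% in the other 8 libraries of the first series and 8.60% to 10.2% in those of the second. Results that involve the IgA group are therefore also given without that library where it changes a call or a sign.

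MUC16 was by far the most abundant of the 8 genes. It supplied between 96.8% and 99.0% of all mucin counts in a library, and between 0.0776% and 0.285% of all counts, which placed it between rank 21 and rank 135 among all genes. Its annotated exons add up to 44165 bases, the most of the 8 genes. As RPKM, counts divided by exon length and by the library size after correction for composition (TMM), the level of MUC16 had a median of 34.1 in the first series, with a range of 17.8 to 80.8. The median was 45.4 in the second, with a range of 33.7 to 63.1. On that per-length scale it ranked between 403 and 2123 of 33177 genes with an annotated length and was 2.21 to 7.05 times the sum of the other 7 mucins.

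The other mucins followed in a steep order per length. MUC1 had a median RPKM of 6.94 in one series and 9.53 in the other, MUC20 of 1.36 and 1.10, MUC15 of 1.23 and 0.634, and MUC5AC of 0.129 and 0.695. MUC20 and MUC15 overlapped in their ranges in the first series, from 0.771 to 2.19 and from 0.798 to 2.31, and MUC5AC and MUC15 overlapped in the second, from 0.346 to 0.844 and from 0.353 to 0.890. MUC4, MUC5B and MUC13 did not exceed 0.0731 RPKM in any library. In each series the 2 highest medians thus belonged to membrane mucins, MUC16 and MUC1.

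**Figure D1:**
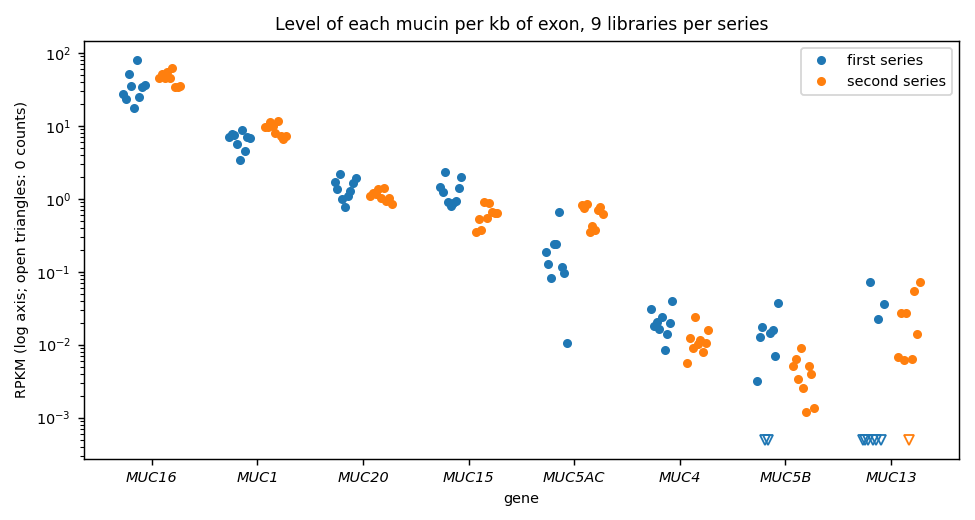
Level of each mucin in RPKM on a log axis, 1 point per library, with 9 libraries of the first series in blue and 9 of the second in orange and libraries at 0 counts as open triangles. MUC16 lies between 17.8 and 80.8 RPKM, above every other mucin in every library, and the 2 series were processed as separate tables.

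Where the genes lie and what they share in sequence bears on how well their reads can be placed. Positions are from GENCODE on GRCh37, the build to which the reads were aligned. MUC16 spans chr19:8959520-9121066 on the minus strand in 87 merged exons, and 99.7% of the 75-base windows of its exons occur once in the genome. MUC1 (chr1:155158300-155162707, minus strand, 99.6% unique), MUC13 (chr3:124624289-124672663, minus strand, 100% unique) and MUC15 (chr11:26580579-26593810, minus strand, 100% unique) are as well placed. MUC20 (chr3:195447755-195467994, plus strand) and MUC4 (chr3:195473636-195538844, minus strand) are neighbours, with 74.6% and 81.4% of windows unique and MUC20 windows that occur up to 14 times. MUC5AC (chr11:1151580-1222364, plus strand) and MUC5B (chr11:1244296-1283402, plus strand) are neighbours too, with 99.1% and 72.2% unique. The GRCh37 sequence of MUC5AC holds a gap of 50000 unknown bases, and its annotated exons add up to 5930 bases, the length on which its RPKM rests.

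Repeated stretches were looked for in the largest exon of each mucin. None was found that way for MUC16, MUC1, MUC13 or MUC20, where the stretch occurred in 1 exact copy. MUC15 gave only a 16-base run of gt in 2 copies, and MUC5B an 87-base stretch in 5. Whether any of these stretches codes for a glycan-bearing domain was not tested. A repeated stretch is shown on the coding strand for MUC4, a membrane mucin at low counts here. The same is shown for MUC5AC, a gel-forming mucin whose counts differed between groups. The length of each was the shift at which the largest exon matched itself best, and the stretch recurred most often at that length. Each unit as printed can therefore hold several shorter repeats. The 96-base MUC4 stretch occurs in 7 exact copies in the exon at chr3:195505661-195518368, and the 72-base MUC5AC stretch in 2 exact copies in the exon at chr11:1212760-1213750. These are copies of the whole stretch and not of its shortest repeat.
MUC4 repeat unit: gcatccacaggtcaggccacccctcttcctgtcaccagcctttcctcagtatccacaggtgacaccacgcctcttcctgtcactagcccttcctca
MUC5AC repeat unit: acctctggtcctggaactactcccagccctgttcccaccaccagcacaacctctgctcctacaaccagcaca

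A gene was tested where edgeR's filter on low counts kept it, which left 7 of the 8 mucins in the first series, and 6 in the other. MUC13 was tested in neither, and MUC5B only in the first. Tests were edgeR's quasi-likelihood F test, two-sided, with p-values adjusted over all genes tested (Benjamini-Hochberg) and a call at an adjusted p under 0.05. A normalised count is the count corrected for library size and composition (TMM) and set to the average library of its series. Group values are means ± SD of 3 libraries.

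The comparison of non-specific IgA with IgG asked what IgA does beyond the presence of an antibody. MUC5AC rose and MUC20 fell, while MUC16, MUC1, MUC4, MUC5B and MUC15 did not pass the test. Of all 18012 genes tested, 12.6% were called higher and 11.6% lower with IgA, beside 1 of 7 mucins in each direction, so the share of mucins called was close to that of all genes. The 3 IgA libraries lay above the 3 IgG libraries for MUC5AC and below them for MUC20 and MUC15, as for 19.7% and 20.6% of all genes. The median log2 fold change of the 7 mucins was -0.52, against -0.01 over all genes. Against untreated cells, MUC20 and MUC15 fell with IgA and no mucin rose, beside 12.9% of all genes called higher and 12.1% lower, with a median log2 fold change of -0.45 over the 7 mucins and -0.01 over all genes. Again MUC5AC lay wholly above and MUC20 and MUC15 wholly below, where 19.8% and 20.1% of all genes did. With IgG, no mucin passed against untreated cells, nor did any other gene (0% in either direction by edgeR, and 0.494% at an unadjusted p under 0.05). The log2 fold changes were -0.27 for MUC1, 0.07 for MUC4, -0.80 for MUC5AC, 0.79 for MUC5B, -0.23 for MUC15, -0.11 for MUC16 and -0.13 for MUC20. Every tested mucin overlapped there, where 3.32% of genes lay wholly above and 3.43% wholly below.

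In the second series the comparisons with untreated cells asked how the cells respond to an IgA of known target. With BDNF IgA, MUC15 rose and MUC5AC fell, where 4.49% of 18732 genes were called higher and 3.18% lower. MUC15 lay wholly above and MUC5AC wholly below, where 12.8% and 12% of all genes did. The median log2 fold change of the 6 mucins was 0.15, against 0.00 over all genes. With TSPAN7 IgA, MUC16 and MUC1 fell and no mucin rose, where 4.46% of all genes were higher and 4.08% lower, with medians of -0.27 for the mucins and -0.00 for all genes. MUC15 lay wholly above and MUC16, MUC1 and MUC20 wholly below, where 14.4% and 14% of all genes did. Between the 2 antibodies, TSPAN7 IgA gave less MUC16, MUC1 and MUC20 and more MUC5AC. There 3.42% of all genes were called higher and 4.5% lower, and the medians were -0.42 and -0.00. The TSPAN7 IgA libraries lay wholly above for MUC5AC and wholly below for MUC16, MUC1 and MUC20, where 11.5% and 12.1% of all genes did. All comparisons within a series share libraries, so their values are set side by side and not counted as separate support.

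The all-gene shares themselves depended on single libraries. For TSPAN7 IgA against BDNF IgA, the 641 genes called higher became 196 without BDNF IgA replicate 3 or TSPAN7 IgA replicate 2 and 1554 without BDNF IgA replicate 2, and the 843 called lower became 286, 308 and 1722. With BDNF IgA against untreated cells, 841 higher and 596 lower became 429 and 305 without BDNF IgA replicate 3, 512 and 293 when untreated replicate 2 was left out, and 1505 and 1293 when BDNF IgA replicate 2 was, and the other single libraries gave 506 to 593 and 337 to 377. With TSPAN7 IgA, 836 higher and 764 lower became 429 and 328 without TSPAN7 IgA replicate 2, and 533 to 689 and 433 to 682 without any other. For IgA against IgG, 2265 higher and 2095 lower became 1339 and 1227 once IgG replicate 3 was dropped, or 1341 and 1280 with replicate 2 dropped instead. For IgA against untreated cells, 2316 and 2187 became 1365 and 1236 when untreated replicate 3 was dropped, or 1471 and 1398 with replicate 1 dropped instead. Without any of the other libraries those 4 counts moved by less than 1.5 times.

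**Figure D2:**
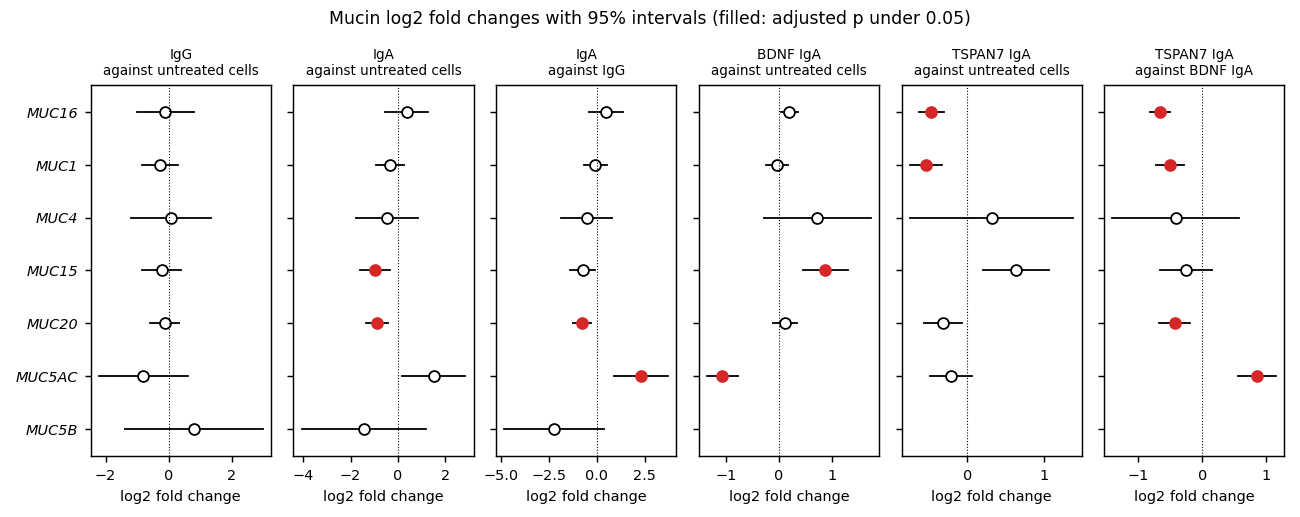
Log2 fold change (points) with its 95% interval (lines) of each tested mucin in the 6 comparisons, each panel on its own axis, filled where edgeR's adjusted p was under 0.05. No point is filled for IgG against untreated cells, MUC16 and MUC1 are filled to the left of 0 in both TSPAN7 IgA panels, and MUC5AC lies right of 0 for IgA against IgG at 2.31 and left of 0 for BDNF IgA at -1.08.

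MUC16 in the first series varied more between replicates than between groups. Its normalised counts were 42790, 36522 and 81099 in untreated cells, 39150, 53028 and 56798 with IgG, and 54692, 27627 and 125721 with IgA. The highest IgA library thus held 4.55 times the lowest, and both the highest and the lowest MUC16 value of the series lay in the IgA group. Means were 53470 ± 24132, 49659 ± 9294 and 69347 ± 50663. The log2 fold change of IgA against IgG was 0.48 (95% interval -0.42 to 1.39, edgeR adjusted p = 0.433), and against untreated cells 0.37 (-0.53 to 1.28, edgeR adjusted p = 0.550). The sign rested on IgA replicate 3, the library with the high mitochondrial share, since without it the values were -0.27 and -0.38. With no filter on low counts both passed, at 0.47 (edgeR adjusted p = 9.85e-04) and 0.36 (edgeR adjusted p = 0.0188). These fold changes were nearly the same as with the filter, and the libraries of the groups overlapped. Why the adjusted p-values differed was not tested.

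That spread was large for a gene of this abundance. The negative binomial dispersion of MUC16, the squared variation between replicates beyond counting error, was 0.125 in the first series. Among the 94 genes within 2-fold of its mean level, 96.8% had a lower dispersion, and their median was 0.0133. For the second series it was 0.00449, above 94.8% of 58 such genes.

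MUC16 was steadier in the second series, as genes in general were, and TSPAN7 IgA separated from both other groups. Normalised counts were 86097, 95575 and 84830 in untreated cells, 102297, 85059 and 118085 with BDNF IgA, and 63141, 64536 and 65115 with TSPAN7 IgA. All 3 TSPAN7 IgA libraries lay below all 6 others, and they differed from each other by a factor of only 1.03. Means were 88834 ± 5872, 101814 ± 16518 and 64264 ± 1015. MUC16 with TSPAN7 IgA was 0.723 times its level in untreated cells (95% interval 0.649 to 0.807), a log2 fold change of -0.47 (edgeR adjusted p = 3.43e-04, SE 0.08). Against BDNF IgA it was 0.631 times (0.566 to 0.704), a log2 fold change of -0.66 (edgeR adjusted p = 3.05e-05, SE 0.08). Both calls held under every alternative tried, including leaving out each replicate.

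With BDNF IgA itself, MUC16 was not called against untreated cells, at a log2 fold change of 0.20 (95% interval 0.04 to 0.35, edgeR adjusted p = 0.117), and the groups overlapped. BDNF IgA replicate 2 lay among the untreated libraries and the other replicates above them. Without that replicate the log2 fold change was 0.31 and passed (edgeR adjusted p = 1.22e-04), and with no filter on low counts it was 0.20 and passed as well (edgeR adjusted p = 2.48e-05).

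MUC1, a membrane mucin whose cytoplasmic tail takes part in signalling, fell together with MUC16 under TSPAN7 IgA. Its normalised counts in the second series were 969, 992 and 1132 in untreated cells, 1015, 806 and 1194 with BDNF IgA, and 739, 664 and 730 with TSPAN7 IgA. Every TSPAN7 IgA library was below every other library of the series. Its log2 fold change was -0.54 against untreated cells (edgeR adjusted p = 0.00170, SE 0.10) and -0.50 against BDNF IgA (edgeR adjusted p = 0.00415), and neither call was lost under any alternative. BDNF IgA and untreated cells overlapped, at -0.04 (95% interval -0.24 to 0.17, edgeR adjusted p = 0.873).

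In the first series MUC1 counts were 588, 665 and 636 in untreated cells, 387, 594 and 586 with IgG, and 474, 285 and 744 with IgA. The IgA libraries again spanned the whole range of the series, with replicate 2 lowest and replicate 3 highest, the same order as for MUC16. IgA gave a log2 fold change of -0.07 against IgG (edgeR adjusted p = 0.878) and -0.34 against untreated cells (edgeR adjusted p = 0.389). Without IgA replicate 3 the latter was -0.73 and passed (edgeR adjusted p = 0.0226). The dispersion of MUC1 exceeded that of 96.4% of the genes near its level here, and of 98.1% in the other series.

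**Figure D3:**
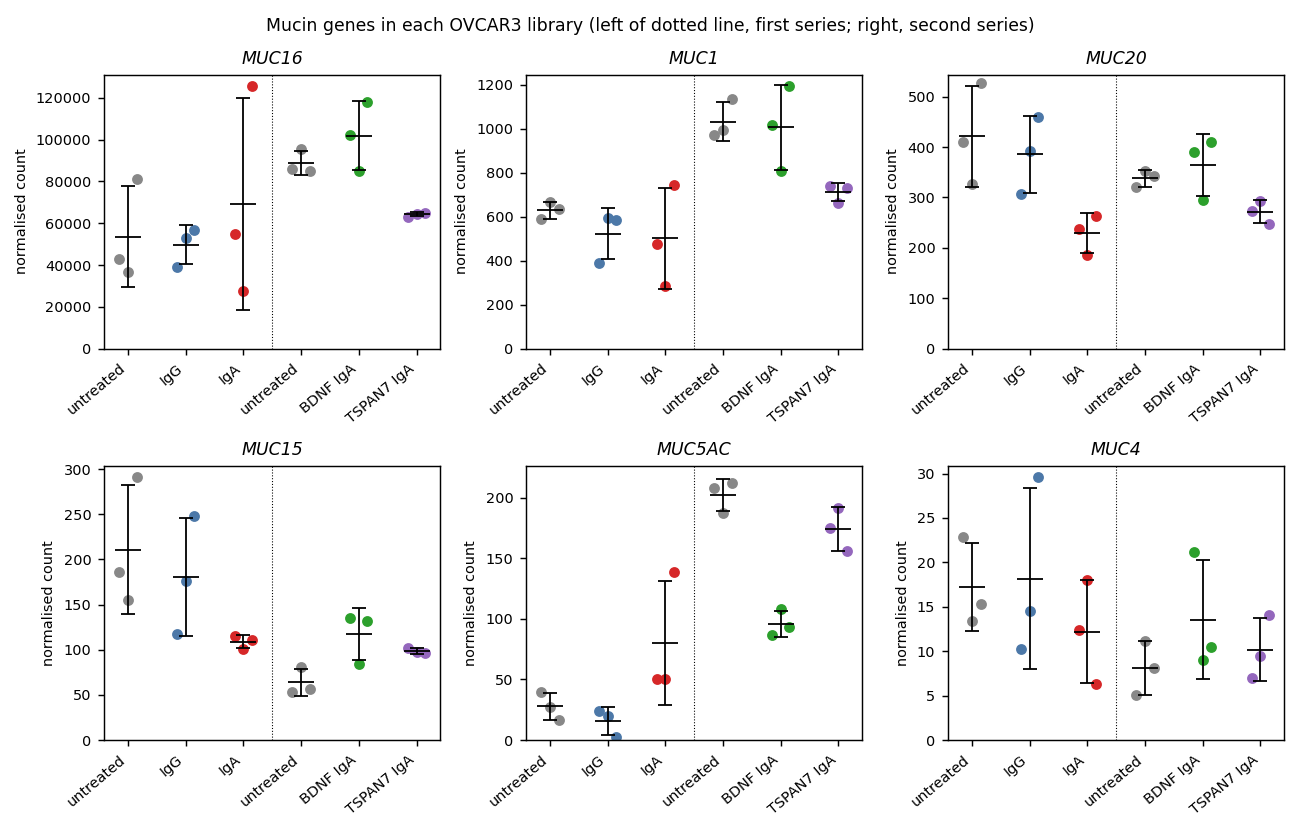
Normalised counts of 6 mucins in each library, with the mean (long bar) and SD (short bars) of 3 replicates, groups of the first series left of the dotted line and of the second right of it, each series on its own scaling. The 3 TSPAN7 IgA points of MUC16, between 63141 and 65115, lie below the other groups of the second series, whereas the 3 IgA points run from 27627 to 125721.

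The sequences just before the start of MUC16 and MUC1 are shown because these genes fell together under TSPAN7 IgA. RefSeq (GRCh38.p14) gave starts for 4 of the 8 mucins, MUC1, MUC4, MUC13 and MUC16, and each sequence below matched GRCh37 exactly and once on its chromosome. The 250 bases run 5′ to 3′ on the minus strand and end at the start site. Capitals mark matches to 4 motifs, searched on both strands, of factors that act downstream of interferons, NF-kB and growth factor signals: TTTCNNTTTC (ISRE), TTCNNNGAA (GAS), GGGNNNNNCC (kB) and TGANTCA (AP-1). They occur in 3.02%, 6.57%, 54.4% and 6.57% of 35116 windows of that length.
MUC16, chr19:9121086-9121335 (GRCh37, minus strand): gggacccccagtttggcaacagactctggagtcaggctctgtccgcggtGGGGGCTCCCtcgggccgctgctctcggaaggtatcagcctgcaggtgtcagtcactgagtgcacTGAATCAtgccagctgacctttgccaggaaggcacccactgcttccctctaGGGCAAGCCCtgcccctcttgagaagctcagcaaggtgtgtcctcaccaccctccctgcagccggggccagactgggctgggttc
MUC1, chr1:155162707-155162956 (GRCh37, minus strand): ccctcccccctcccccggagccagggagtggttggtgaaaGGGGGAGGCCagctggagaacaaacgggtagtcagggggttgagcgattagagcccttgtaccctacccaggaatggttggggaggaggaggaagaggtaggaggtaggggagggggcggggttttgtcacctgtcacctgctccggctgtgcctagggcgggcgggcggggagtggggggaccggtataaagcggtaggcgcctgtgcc

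The MUC16 window holds 2 kB matches and 1 AP-1 match, which do not overlap, and the MUC1 window 1 kB match. Neither holds a match to ISRE or GAS. A further RefSeq start of MUC16, with its window at chr19:9176428-9176677, has no match to any of the 4. These are matches of letters and were not tested for binding.

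MUC20, a membrane mucin reported to interact with the MET receptor, fell with non-specific IgA. Its normalised counts were 410, 327 and 527 in untreated cells, 307, 392 and 459 with IgG, and 238, 186 and 264 with IgA. All IgA libraries lay below all IgG and untreated libraries. The log2 fold change was -0.88 against untreated cells (95% interval -1.35 to -0.42, edgeR adjusted p = 0.0103) and -0.76 against IgG (-1.22 to -0.29, edgeR adjusted p = 0.0229). The call against IgG was lost without IgA replicate 2 (edgeR adjusted p = 0.0630), IgG replicate 2 (0.0670) or IgG replicate 3 (0.0991), and that against untreated cells without untreated replicate 3 (edgeR adjusted p = 0.0615). IgA replicate 3 was the highest of its group, and without it the values were -0.996 and -0.87 and both passed. MUC20 shares 1851 exon bases with MUC20-OT1 on the same strand, and not all of its sequence is unique, so its counts are uncertain.

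MUC20 counts in the second series were 320, 352 and 342 in untreated cells, 390, 295 and 411 with BDNF IgA, and 274, 293 and 248 with TSPAN7 IgA. The TSPAN7 IgA libraries lay below all others. The difference from BDNF IgA passed, at a log2 fold change of -0.43 (edgeR adjusted p = 0.0262), but was lost without BDNF IgA replicate 1 (0.123) or 3 (0.177), without any one TSPAN7 IgA replicate (0.0669, 0.0558 and 0.118) and in a fit of only the 6 libraries compared (0.0511), all edgeR adjusted p-values. The difference from untreated cells, -0.32, did not pass (edgeR adjusted p = 0.103) except in the fit of 6 libraries (edgeR adjusted p = 0.0345). BDNF IgA overlapped untreated cells, at 0.11 (edgeR adjusted p = 0.626).

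MUC15, a membrane mucin of epithelia, fell with non-specific IgA and rose with BDNF IgA. In the first, normalised counts were 186, 156 and 292 in untreated cells, 118, 177 and 248 with IgG, and 115, 101 and 111 with IgA. The IgA libraries lay just under the lowest IgG library and below all untreated ones. A log2 fold change of -0.96 was measured against untreated cells (edgeR adjusted p = 0.0306, SE 0.30) and of -0.73 against IgG (edgeR adjusted p = 0.0896). The call against untreated cells was lost without IgA replicate 1 (edgeR adjusted p = 0.0621), IgA replicate 2 (0.0679), untreated replicate 1 (0.0539) or untreated replicate 3 (0.169), and kept without IgA replicate 3 (-0.97, 0.0380). Against IgG, a call was gained without IgG replicate 1 (edgeR adjusted p = 0.0366), with no filter on low counts (0.0275) and with scaling by library size alone (0.0272).

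The second series had MUC15 counts of 53.7, 80.9 and 56.9 in untreated cells, 135, 83.9 and 132 with BDNF IgA, and 101.9, 96.97 and 96.35 with TSPAN7 IgA. Both antibody groups lay above the untreated libraries, BDNF IgA replicate 2 by a small margin. On the log2 scale the difference was 0.88 for BDNF IgA (edgeR adjusted p = 0.00898, SE 0.20) and 0.63 for TSPAN7 IgA (edgeR adjusted p = 0.0650). The BDNF IgA call was lost without its replicate 1 (edgeR adjusted p = 0.0580) or 3 (0.0514) or untreated replicate 1 (0.0571). The TSPAN7 IgA value passed without untreated replicate 2 (0.83, edgeR adjusted p = 0.0352), in the fit of 6 libraries (0.0330) and with no filter on low counts (0.0207). The antibodies did not differ beyond the spread, at -0.25 (95% interval -0.65 to 0.15, edgeR adjusted p = 0.488). MUC15 lies within ANO3 on the opposite strand, which had at most 15 counts in any library.

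MUC5AC, a gel-forming mucin of airway and gastric epithelium, had the largest called change of any mucin in each series. In the second series its raw counts were 205, 185 and 235 in untreated cells, 86, 108 and 98 with BDNF IgA, and 175, 182 and 144 with TSPAN7 IgA. As normalised counts these were 208, 187 and 212, then 86.9, 108 and 93.1, then 175, 192 and 156. The BDNF IgA libraries lay well below all others, and TSPAN7 IgA overlapped untreated cells. MUC5AC with BDNF IgA was 0.474 times its level in untreated cells (95% interval 0.388 to 0.580), a log2 fold change of -1.08 (edgeR adjusted p = 3.10e-05, SE 0.14). TSPAN7 IgA was 1.81 times BDNF IgA (1.48 to 2.23), at 0.86 (edgeR adjusted p = 6.56e-04, SE 0.14), and did not differ beyond the spread from untreated cells, at -0.22 (95% interval -0.49 to 0.06, edgeR adjusted p = 0.357). The calls on BDNF IgA held under every alternative.

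In the first series MUC5AC rested on few reads. Raw counts were 38, 32 and 21 in untreated cells, 26, 22 and 2 with IgG, and 45, 50 and 88 with IgA. The normalised counts were 39.5, 26.9 and 16.9, then 24.3, 20.03 and 2.20, then 50.5, 49.96 and 139. All IgA libraries lay above all others, with replicate 3 far above its group and IgG replicate 3 far below its own. The log2 fold change of IgA against IgG was 2.31 (95% interval 0.91 to 3.72, edgeR adjusted p = 0.0212), a fold of 4.97 (1.88 to 13.2). It was lost without IgA replicate 3 (1.66, edgeR adjusted p = 0.0644), IgG replicate 2 (2.53, 0.0535) or IgG replicate 3 (1.82, 0.0549). Against untreated cells the value of 1.51 did not pass (edgeR adjusted p = 0.0917), though it did by DESeq2 (adjusted p = 0.0497) and with no filter on low counts (edgeR adjusted p = 0.0104). Without IgA replicate 3 it was 0.86 (edgeR adjusted p = 0.318).

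The remaining mucins were near the lower limit of detection. MUC4, a membrane mucin and partner of ERBB2, had 4 to 27 counts per library in one series and 5 to 21 in the other. Its groups overlapped in all 6 comparisons, with log2 fold changes from -0.52 to 0.73 and edgeR adjusted p-values from 0.414 up. MUC5B, the other gel-forming mucin, had 2, 10 and 14 counts in untreated cells, 11, 5 and 22 with IgG, and 0, 0 and 6 with IgA. Its log2 fold change of -2.23 against IgG had a 95% interval from -4.81 to 0.36 (edgeR adjusted p = 0.194). Against untreated cells IgA gave -1.44, with a 95% interval from -4.08 to 1.20 (edgeR adjusted p = 0.423), and the groups overlapped. Without IgA replicate 3 both IgA libraries left were at 0 and MUC5B passed against IgG (edgeR adjusted p = 0.0180) and untreated cells (edgeR adjusted p = 0.0376). It had 1 to 7 counts in the second series and was not tested there.

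MUC13, a membrane mucin of the intestine, had 0 counts in all 3 untreated libraries of the first series, 3, 0 and 4 with IgG and 8, 0 and 0 with IgA. Counts in the second series were 1, 4 and 1 in untreated cells, 4, 0 and 1 with BDNF IgA, and 8, 2 and 10 with TSPAN7 IgA. These counts were too low to be tested, and differences between groups were not detectable at this depth. A library at 0 allows up to 3 counts.

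Mucins carry O-glycans that are begun by polypeptide GalNAc transferases (GALNT genes) and then extended and capped with sialic acid or fucose. Of 14 starting enzymes tested, 2 rose and 1 fell with IgA against IgG, 1 rose against untreated cells, 1 rose with BDNF IgA, 1 rose and 1 fell with TSPAN7 IgA, and 1 fell between TSPAN7 IgA and BDNF IgA. Of all genes, 12.6% rose and 11.6% fell with IgA against IgG, 12.9% and 12.1% against untreated cells, 4.49% and 3.18% with BDNF IgA, 4.46% and 4.08% with TSPAN7 IgA, and 3.42% and 4.5% between these, so for this and the following lists a count near those shares is no result about the list. The list's median log2 fold change stayed between -0.02 and 0.04 over the 6 comparisons, where the median of all genes stayed between -0.01 and 0.00. GALNT6 fell by 0.37 with IgA against IgG (edgeR adjusted p = 0.0320), rose by 0.40 with BDNF IgA (edgeR adjusted p = 7.23e-04) and stood at -0.32 for TSPAN7 IgA against BDNF IgA (edgeR adjusted p = 0.00560). With IgA against untreated cells GALNT6 was uncalled, at -0.21 (edgeR adjusted p = 0.186). All its IgG libraries lay above all untreated ones. GALNT10 was higher by 0.43 with IgA than with IgG, by 0.41 than in untreated cells and by 0.17 with TSPAN7 IgA than in untreated cells (edgeR adjusted p = 0.0206, 0.0261 and 0.0286). GALNT16, at 0.82 for IgA against IgG (edgeR adjusted p = 0.0463), and WBSCR17, at -0.38 for TSPAN7 IgA against untreated cells (edgeR adjusted p = 0.0395), passed narrowly. With IgA against untreated cells GALNT16 was uncalled and its groups overlapped, at 0.68 (edgeR adjusted p = 0.0900). GALNT6 for IgA against IgG was lost without IgA replicate 1 or any IgG replicate (edgeR adjusted p from 0.0674 to 0.0904). GALNT10, GALNT16 and WBSCR17 each lost their calls without 2 or more single libraries (edgeR adjusted p up to 0.147, 0.169 and 0.226), and scaling by library size alone ended those of GALNT10 with IgA (0.330 and 0.329) and of GALNT16 (0.133). Without IgA replicate 3, GALNT10 against untreated cells (0.0546) and GALNT16 (0.0974) lost theirs.

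Among 19 core and capping enzymes tested, 3 rose and 3 fell with IgA against IgG, 2 rose and 3 fell against untreated cells, 1 rose with BDNF IgA, 1 rose and 2 fell with TSPAN7 IgA, and 3 fell between TSPAN7 IgA and BDNF IgA, where 12.6% and 11.6%, 12.9% and 12.1%, 4.49%, 4.46% and 4.08%, and 4.5% of all genes did. The sialyltransferases ST6GALNAC1 and ST6GALNAC2, which add sialic acid to the first GalNAc of the chain, fell with non-specific IgA and with TSPAN7 IgA. ST6GALNAC1 counts were 3355, 3419 and 4501 in untreated cells, 2533, 3185 and 4842 with IgG and 2162, 1946 and 1855 with IgA. The second series had 1587, 1631 and 1613 in untreated cells, 1614, 1011 and 1438 with BDNF IgA, and 1051, 1045 and 1007 with TSPAN7 IgA. IgA and TSPAN7 IgA libraries lay below every untreated library of their series, and 1 BDNF IgA library lay as low as those of TSPAN7 IgA. The log2 fold changes against untreated cells were -0.92 with IgA (edgeR adjusted p = 0.00494) and -0.64 with TSPAN7 IgA (edgeR adjusted p = 3.32e-04), and those of ST6GALNAC2 were -1.08 (edgeR adjusted p = 0.00112) and -0.73 (edgeR adjusted p = 3.01e-05). Against IgG they fell by 0.82 and 1.01 with IgA (edgeR adjusted p = 0.00927 and 0.00187). BDNF IgA went the same way against untreated cells, though neither gene passed. ST6GALNAC1 stood at -0.25 there (95% interval -0.46 to -0.04, edgeR adjusted p = 0.139), with overlapping groups. ST6GALNAC2 stood at -0.27 (-0.47 to -0.08, edgeR adjusted p = 0.0746), with all BDNF IgA libraries below.

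ST3GAL1, which caps the next galactose with sialic acid, rose with IgA by a log2 fold change of 1.06 against IgG (edgeR adjusted p = 0.00113) and 1.19 against untreated cells (edgeR adjusted p = 4.80e-04). It was uncalled against untreated cells in the second series, with overlapping groups. Values there were 0.21 with BDNF IgA and 0.04 with TSPAN7 IgA (edgeR adjusted p = 0.146 and 0.840). GCNT3, a branching enzyme of mucin glycans, rose by 0.60 with BDNF IgA (edgeR adjusted p = 0.00125) and 0.44 with TSPAN7 IgA (edgeR adjusted p = 0.0144). FUT8, a fucosyltransferase that acts on N-linked chains, was lower for TSPAN7 IgA against BDNF IgA, at -0.26 (edgeR adjusted p = 0.00363), and with non-specific IgA, at -0.41 against IgG and -0.45 against untreated cells (edgeR adjusted p = 0.0116 and 0.00692, all IgA libraries below). Also lower for TSPAN7 IgA against BDNF IgA were ST6GALNAC1 at -0.39 (edgeR adjusted p = 0.0237) and ST6GALNAC2 at -0.45 (edgeR adjusted p = 0.00579). The list's median log2 fold change was 0.10 for IgA against IgG, 0.13 for IgA against untreated cells and between -0.04 and 0.04 elsewhere. The GCNT3 call with TSPAN7 IgA did not survive the loss of TSPAN7 IgA replicate 3 or of untreated replicate 1 (edgeR adjusted p = 0.0716 and 0.0894). Between the antibodies, the ST6GALNAC1 call was lost by DESeq2 (adjusted p = 0.108) and without any 1 library other than BDNF IgA replicate 2 (up to 0.189), and that of ST6GALNAC2 without BDNF IgA replicate 3 (0.0508) or TSPAN7 IgA replicate 2 (0.0613).

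**Figure D4:**
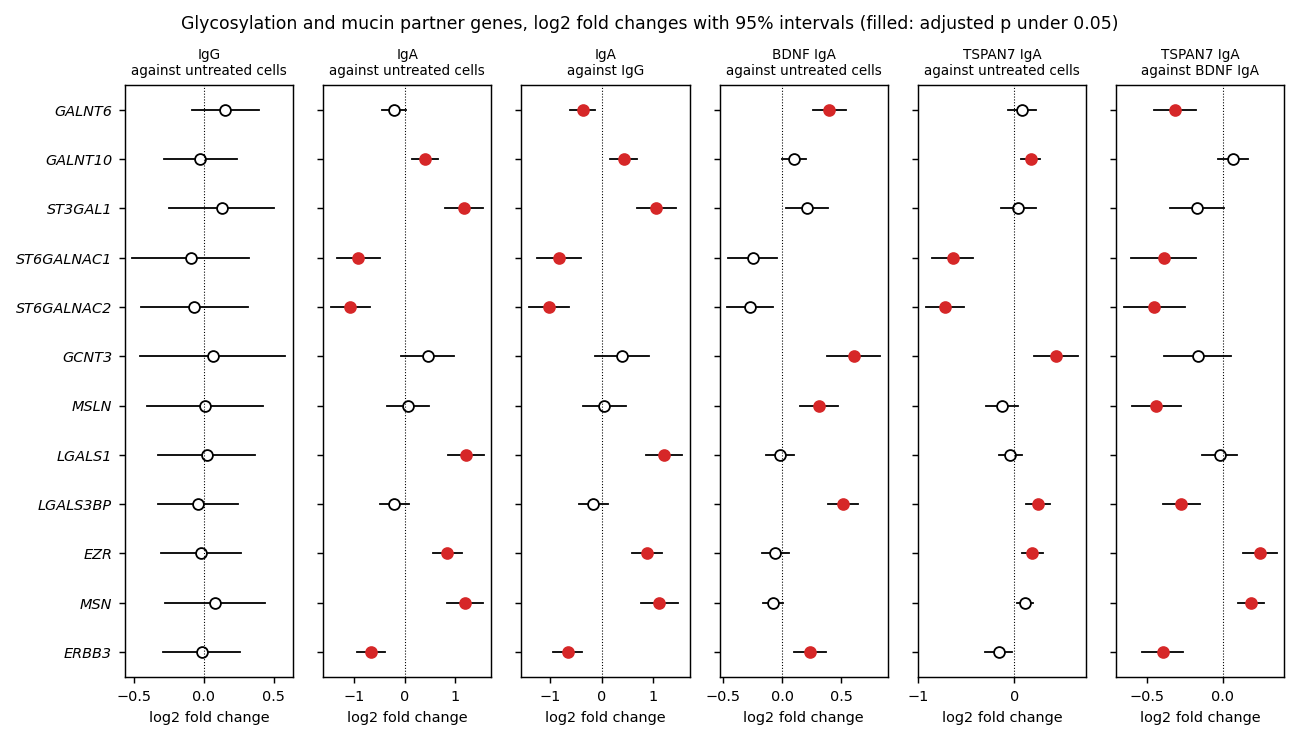
Log2 fold change (points) with its 95% interval (lines) of 12 glycosylation and mucin partner genes in the 6 comparisons, each panel on its own axis, filled where edgeR's adjusted p was under 0.05. ST6GALNAC1 and ST6GALNAC2 lie left of 0 and filled for IgA and for TSPAN7 IgA, and MSLN is filled only in the 2 panels with BDNF IgA, at 0.31 against untreated cells and at -0.44 for TSPAN7 IgA against it.

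MSLN, the binding partner of MUC16, did not pass the test with non-specific IgA. Its normalised counts were 2527, 2259 and 2797 in untreated cells, 2223, 2575 and 2822 with IgG, and 3735, 2057 and 2128 with IgA, where replicate 1 alone was high. The log2 fold change was 0.06 against both IgG and untreated cells (edgeR adjusted p = 0.862 and 0.845), and scaling by library size alone turned it to -0.17 and -0.14. MSLN in the second series was 1553, 1437 and 1703 in untreated cells, 1918, 1709 and 2191 with BDNF IgA, and 1514, 1432 and 1347 with TSPAN7 IgA. It was higher with BDNF IgA than in untreated cells (0.31, edgeR adjusted p = 0.0148), a call lost without BDNF IgA replicate 3 (0.116) or untreated replicate 1 (0.0584) or 2 (0.0998). TSPAN7 IgA against BDNF IgA was lower (-0.44, edgeR adjusted p = 0.00118), as MUC16 was, but TSPAN7 IgA did not differ beyond the spread from untreated cells (-0.13, 95% interval -0.29 to 0.04, edgeR adjusted p = 0.356).

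Of 17 partners, cytoskeletal linkers and sheddases tested, 3 rose and 2 fell with IgA against IgG, 4 rose and 2 fell against untreated cells, 5 rose and 1 fell with BDNF IgA, 4 rose with TSPAN7 IgA, and TSPAN7 IgA against BDNF IgA had 3 higher and 3 lower. The shares of all genes were 12.6% and 11.6%, 12.9% and 12.1%, 4.49% and 3.18%, 4.46%, and 3.42% and 4.5%. The list's medians lay between -0.08 and 0.08. Ezrin (EZR) and moesin (MSN), which tie membrane mucins to actin, rose with IgA, by 0.85 against untreated cells (edgeR adjusted p = 7.52e-04) and by 1.20 (edgeR adjusted p = 3.42e-04), and LGALS1, a galectin, by 1.22 (edgeR adjusted p = 2.45e-04). Against IgG the same genes rose by 0.87, 1.12 and 1.20 (edgeR adjusted p = 7.16e-04, 6.15e-04 and 2.96e-04). In the second series EZR under TSPAN7 IgA was up 0.19 over untreated cells (edgeR adjusted p = 0.0343) and 0.25 over BDNF IgA (0.00746). MSN was up 0.19 over BDNF IgA (edgeR adjusted p = 0.00640), while 0.11 over untreated cells fell short (0.115). LGALS1 was uncalled at -0.04 for TSPAN7 IgA against untreated cells. BDNF IgA left EZR, MSN and LGALS1 uncalled against untreated cells, at -0.06, -0.08 and -0.02. Single libraries were not left out for these values. LGALS3BP, a secreted galectin-binding glycoprotein, rose with BDNF IgA by 0.51 (edgeR adjusted p = 8.08e-06) and by 0.24 with TSPAN7 IgA (edgeR adjusted p = 0.0138), and the latter was lower than the former, at -0.27 (edgeR adjusted p = 0.00768). The last 2 calls on LGALS3BP were lost without TSPAN7 IgA replicate 1 or 3 or untreated replicate 1 (edgeR adjusted p from 0.0548 to 0.0828), and without BDNF IgA replicate 1 or 3 or TSPAN7 IgA replicate 2 (0.0538 to 0.0682).

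With TSPAN7 IgA against untreated cells, EGFR, a receptor tyrosine kinase that binds MUC1, rose by 0.29 (edgeR adjusted p = 3.64e-04) and ADAM10, a membrane protease, by 0.21 (edgeR adjusted p = 0.00339). ADAM10 rose with BDNF IgA as well, by 0.22 (edgeR adjusted p = 0.00261, wholly above), and stood at -0.01 between the antibodies (edgeR adjusted p = 0.915). ERBB3, of the same receptor family, rose by 0.23 with BDNF IgA (edgeR adjusted p = 0.0322) though the groups overlapped, and was lower for TSPAN7 IgA against BDNF IgA, at -0.40 (edgeR adjusted p = 7.32e-04). With non-specific IgA it was lower by more, at -0.66 against IgG and -0.67 against untreated cells (edgeR adjusted p = 0.00330 and 0.00267), with all IgA libraries below. Of 14 other mucins, 4 were tested in the first series, 5 were tested in the other, and CD164 alone passed, at 0.19 with BDNF IgA (edgeR adjusted p = 0.0194), where 4.49% of all genes were called higher. The BDNF IgA calls on ERBB3 and CD164 were each lost without BDNF IgA replicate 1 or 3 or untreated replicate 1 or 2 (edgeR adjusted p up to 0.170 and 0.157). Of 19 genes of gel mucin secretion and goblet cells, 8 were tested, and none was called in any of the 6 comparisons, where 0% to 12.9% of all genes were called in a direction, so a count of 0 among 8 is no result about the list.

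The genes whose pattern was most like that of MUC16 were NDRG1, PRUNE2 and ZC3H6. Likeness was the root mean square difference of the 4 log2 fold changes against untreated cells (IgA, IgG, BDNF IgA and TSPAN7 IgA), of which those of the same series share untreated libraries. It was 0.0719, 0.0784 and 0.101, against a median of 0.363 over 12844 genes. NDRG1, a stress-responsive gene, had 0.41, -0.05, 0.09 and -0.54, where MUC16 had 0.37, -0.11, 0.20 and -0.47. For MUC5AC the nearest were MIR3648, AKR1C2, an aldo-keto reductase of steroid metabolism, and HIST1H4L, a histone gene, at 0.357, 0.487 and 0.497, against a median of 1.02 over 12845 genes, so no gene followed it as closely. These distances are descriptions, with no test. They are smaller than the standard errors in the first series against untreated cells. Those were 0.42 with IgA and 0.42 with IgG for MUC16, and 0.62 and 0.65 for MUC5AC. Leaving out 1 replicate moved MUC16 between -0.38 and 0.81 with IgA and between -0.32 and 0.32 with IgG. Which genes come nearest is therefore uncertain.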

How the data were processed

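Gene expression was read out by RNA sequencing of 18 libraries of OVCAR3 cells, and sample titles gave the 6 groups and replicate numbers. The methods describe adapter trimming, alignment to GRCh37 and counting of uniquely aligned reads per gene with featureCounts, while the submitters' processing notes name bcl2fastq 2.20.0.422, cutadapt 1.8.1, HTSeq 0.6.1 and hg19. The authors deposited raw counts per gene symbol, without normalization, in 1 table per series. Strand use in counting was not given in the sources used here, so overlapping, antisense and closely related genes can share or lose reads. The second table held 57820 rows, of which 2055 exact repeats were dropped, leaving 55765 symbols.

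Each series was fitted with its 9 libraries in edgeR 4.0.16 (R 4.3.3) with TMM scaling, filterByExpr and the quasi-likelihood F test. Standard errors and 95% intervals came from that fit. Simulated data with 200 changed genes were used to test the fit. RPKM used merged exons of GENCODE v44lift37, available for 33177 symbols. Alternatives were DESeq2 1.42.0, other scalings and filters, library sizes without genes of the mitochondrial genome or for ribosomal RNA, a fit restricted to the 6 libraries of a comparison, a replicate block and leaving out each replicate. For genes other than the mucins these were added once the data had been seen.

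The mucins, the gene lists and the tests were chosen with earlier results of these data known. Every tested mucin is named in every comparison. From each list, up to 3 called genes with the largest absolute log2 fold change and at least 50 normalised counts in the higher group are named, and MSLN whatever its value. Reads carried no molecular identifiers, so floors cover counting error only, and errors are those between replicates.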

Additional observations from a re-analysis of the deposited data

Results flagged for a closer look

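MUC5AC and MUC15 had fold changes of opposite sign in the 2 series under antibodies of the same class. The log2 fold change of MUC5AC against untreated cells was 1.51 with non-specific IgA and -1.08 with BDNF IgA, and in each case all 3 treated libraries lay on one side of all 3 untreated ones. That of MUC15 was -0.96 with non-specific IgA, 0.88 with BDNF IgA and 0.63 with TSPAN7 IgA, again with no overlap. Of these values, MUC5AC with non-specific IgA (edgeR adjusted p = 0.0917, and 0.86 with an edgeR adjusted p of 0.318 without IgA replicate 3) and MUC15 with TSPAN7 IgA (edgeR adjusted p = 0.0650) did not pass the test. RPKM was scaled within each series, so the levels are listed series by series and are not compared between them. In the first series mean MUC5AC was 0.133 RPKM in untreated cells and 0.382 with non-specific IgA, and mean MUC15 was 1.67 and 0.862. In the second series mean MUC5AC was 0.805 RPKM in untreated cells and 0.382 with BDNF IgA. Mean MUC15 there was 0.420 in untreated cells, 0.770 with BDNF IgA and 0.647 with TSPAN7 IgA. Differences between the series were not tested, since the tables were compared only within themselves.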

How the results depend on the processing

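Of the recomputed counts of called mucins, 154 stayed within 1.5 times the reported count and 26 did not. Of the recomputed mucin fold changes, 518 kept their direction and side of the threshold, 19 changed sign, 16 gained a call and 20 lost one, and of those of the other named genes 546 kept both, 9 changed sign and 60 lost a call. The calls of MUC16 and MUC1 for TSPAN7 IgA and of MUC5AC for BDNF IgA, against untreated cells and between the antibodies, held under every alternative. With no filter on low counts, 2 mucins were higher with BDNF IgA, 2 higher and 2 lower with IgA against IgG, 2 higher with IgA against untreated cells and 1 higher with TSPAN7 IgA against untreated cells. With library size alone, 2 mucins were lower for IgA against IgG, and MSLN turned to -0.17 (IgA against IgG) and -0.14 (IgA against untreated cells). That scaling moved the all-gene median on the log2 scale from -0.01 to -0.25 for IgA against IgG and to -0.22 against untreated cells, and the calls from 2265 higher and 2095 lower to 873 and 3631, and from 2316 and 2187 to 1001 and 3296. DESeq2 called 1 mucin higher with IgA against untreated cells, and the fit of the 6 libraries compared called 1 higher with TSPAN7 IgA against untreated cells.

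Leaving out 1 replicate gave 0 to 2 mucins higher with BDNF IgA, 0 to 1 higher and 0 to 2 lower for IgA against IgG, 0 to 4 lower for IgA against untreated cells and 0 to 1 higher for TSPAN7 IgA against untreated cells. Values that changed sign then ranged, for IgA against IgG, from -0.27 to 0.86 for MUC16, from -0.47 to 0.21 for MUC1, from -0.91 to 0.00052 for MUC4 and from -0.28 to 0.21 for MSLN. For IgA against untreated cells they ranged from -0.38 to 0.81 for MUC16 and from -0.28 to 0.21 for MSLN. For IgG against untreated cells they ranged from -0.32 to 0.32 for MUC16, from -0.52 to 0.078 for MUC15, from -0.28 to 0.063 for MUC20, from -0.46 to 0.36 for MUC4 and from -0.075 to 0.095 for MSLN. MUC1 with BDNF IgA ranged from -0.18 to 0.095, and MUC4 between the antibodies from -0.71 to 0.057. The causes were not tested.

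Same-numbered replicates correlated at -0.07 to 0.25 in their deviations from group means, so the numbers were not treated as pairs. With the replicate block, the value of MUC16 for IgG against untreated cells was 0.027 in place of -0.11, and no count of called mucins changed.

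MUC4, MUC5B and MUC13 had too few reads for small changes to be seen. MUC16 varied so much between replicates of the first series that a change of 0.48 on the log2 scale did not pass. Genome gaps and repeats limit how well MUC5AC, MUC5B, MUC4 and MUC20 could be counted.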
